A study of Danio rerio with 11 samples.

Results

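The Hox cluster genes of zebrafish were followed in whole embryos between 48 and 96 h post fertilization (hpf), with and without exposure to shoreline oil emulsions. Members were all genes whose single symbol in the array's annotation began with hoxa, hoxb, hoxc or hoxd followed by a digit, without regard to signal level or change. This gave 42 genes, of 8793 with a single symbol on the array, represented by 59 of 15502 probe sets, and the probe set of highest mean signal over the 11 arrays stood for each gene. Total RNA from all 30 embryos of a cup was pooled for each Affymetrix array. Control cups held embryos in 100 ml of medium, and exposed cups also held 250 mg of oil emulsion from the Gulf of Mexico shoreline at Gulfport, Fort Morgan or Perdido Key. Exposure lasted 48 h and ended at collection. The groups were 1 control array at 48 hpf, 3 control arrays at 72 hpf and 2 at 96 hpf, a single Gulfport array for each exposure window (0 to 48, 24 to 72 and 48 to 96 hpf), and single Fort Morgan and Perdido Key arrays for the window from 24 to 72 hpf. The strain of the fish is not given in the sources used here, and no group carried a mutation or transgene by its labels.

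Hox genes encode homeodomain transcription factors that give position along the head-to-tail axis, and they lie in clusters in the order in which they are used along that axis. Low paralog numbers act in the hindbrain and pharyngeal arches, middle numbers in the anterior spinal cord and trunk, and high numbers in the posterior trunk, the tail and the fin buds. Retinoic acid and Cdx factors help to switch the clusters on, Polycomb and Trithorax complexes maintain their states, and Pbx and Meis proteins bind DNA together with Hox proteins. In the teleost lineage a genome duplication gave zebrafish extra clusters, so that many genes have an a and a b copy.

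In RefSeq's zebrafish annotation (assembly GRCz12tu, used for names and gene order only), 7 clusters held 49 protein-coding Hox genes, of which 42 were measured here with a single symbol. The array held 10 genes of the hoxba cluster, 9 of hoxca, 6 each of hoxaa and hoxda, 5 of hoxab, and 3 each of hoxbb and hoxcb. By paralog number, 9 genes were anterior (1 to 3), 16 central (4 to 8) and 17 posterior (9 to 13). All values are log2 signals made by robust multi-array average (RMA), so a difference of 1 is a 2-fold difference. A probe set's signal depends on its probes as well as on its RNA, and signals of different genes were therefore not compared as RNA levels. In 31 genes the signal reached 6 in at least 1 array, and in 11 it never did; dim signals compress differences. Array medians lay between 6.37 and 6.42, and correlations between pairs of arrays over all probe sets lay between 0.938 and 0.995. The labels do not say whether replicate controls came from separate cups or spawnings, so every p-value rests on differences between these arrays alone, part of which may be technical.

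The first question was how Hox signals changed with age in unexposed embryos. Signals of most Hox genes were lower at 96 than at 48 hpf, and no Hox gene rose. Of the 42 genes, 26 fell from 48 to 96 hpf and 0 rose (limma, adjusted p under 0.05); over all probe sets, 12.9% fell and 11.2% rose, and among all genes with a single symbol 15.4% fell. The median difference over the Hox genes was -0.57, with all 42 differences below 0 (range -1.48 to -0.04), against a median of -0.02 over all probe sets. Without 96 hpf control replicate 1 or replicate 2, 17 genes fell, where 8.89% and 8.02% of all probe sets did. Such losses were followed gene by gene only for the largest falls, so smaller falls given below may be among those lost. Because whole embryos were measured, a smaller share of cells of a type and less RNA per cell cannot be told apart. The 48 hpf control is a single array and was assumed to vary like the controls at 72 and 96 hpf.

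**Figure D1:**
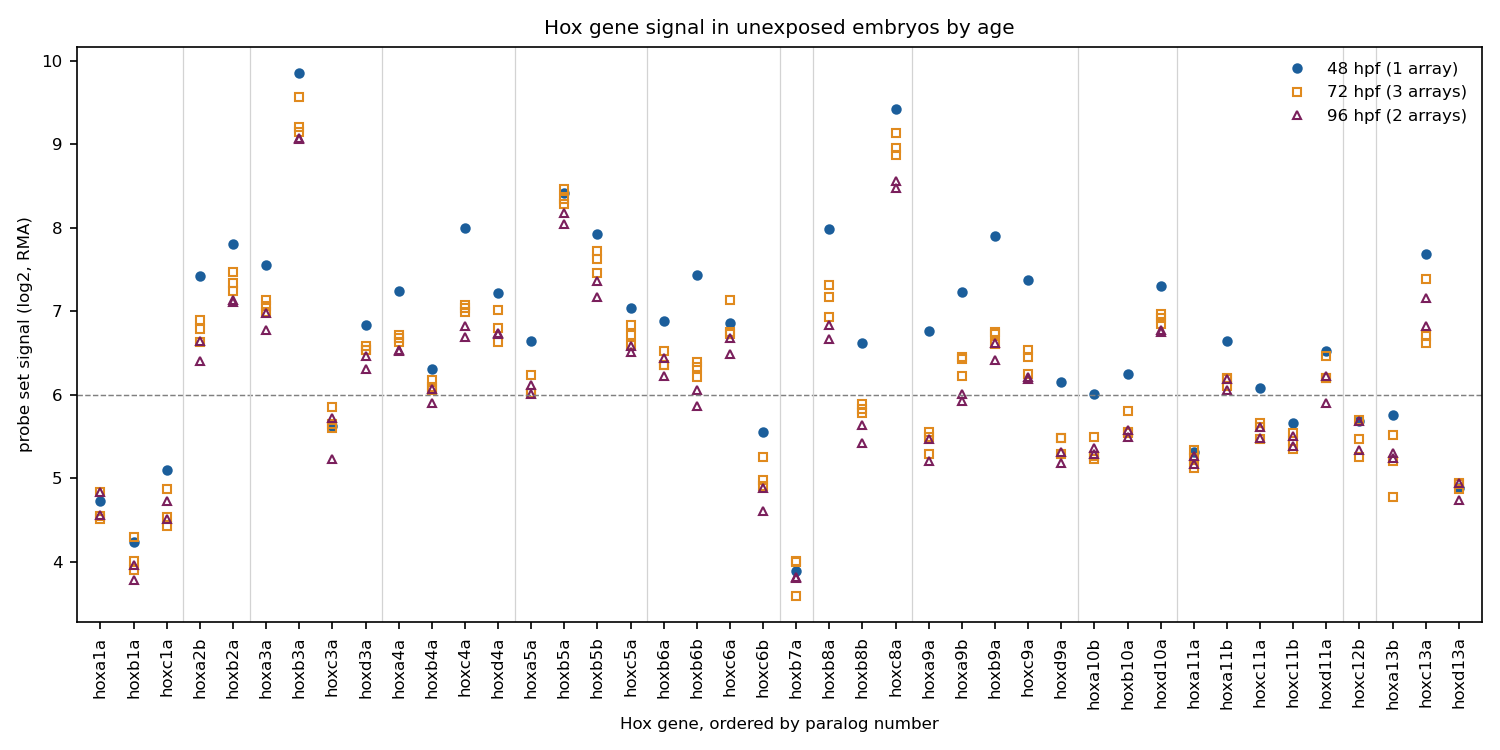
Log2 RMA signal (vertical axis) of the 42 Hox genes in unexposed embryos, ordered by paralog number (horizontal axis), with a point per control array at 48 hpf (1), 72 hpf (3) and 96 hpf (2). The dashed line marks a signal of 6. The 48 hpf point lies above all 5 later controls in 33 of the 42 genes.

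In 33 of the 42 genes the 48 hpf control was above all 5 later controls, which was so for 29.5% of all probe sets. In 16 genes the controls were fully ordered, with the 48 hpf array above all 72 hpf arrays and these above both 96 hpf arrays; 11.2% of all probe sets showed that order.

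Most of the decline lay before 72 hpf. From 48 to 72 hpf 15 of the 42 genes fell and 0 rose, where 5.79% of all probe sets fell and 6.3% rose; the median was -0.48, and 39 genes lay below 0. From 72 to 96 hpf 1 gene fell and 0 rose, where 2.01% of all probe sets fell and 4.55% rose; the median was -0.16, and 35 genes lay below 0. Posterior genes had a median of -0.59 in the first interval and -0.07 in the second. For central genes these medians were -0.45 and -0.26, and for anterior genes -0.46 and -0.19. Differences between these classes were not tested.

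**Figure D2:**
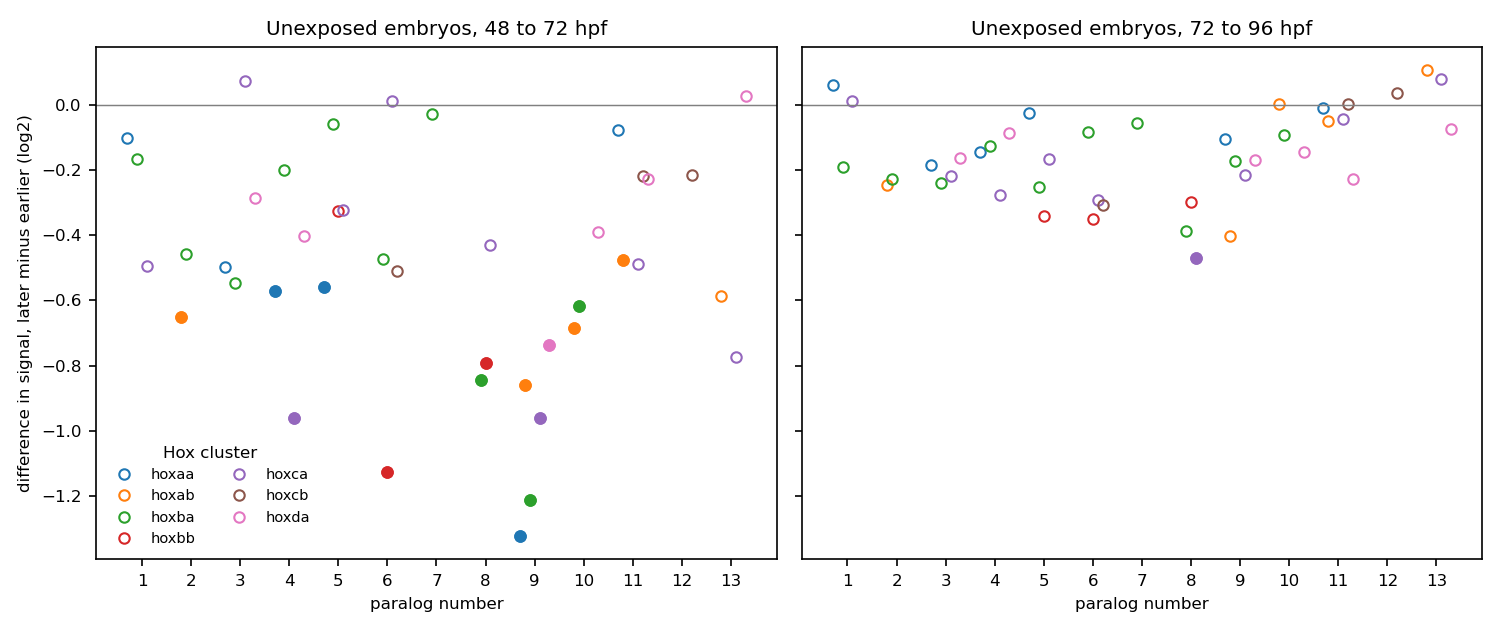
Difference in log2 signal between control ages (vertical axis, later minus earlier) against paralog number (horizontal axis) for the 42 Hox genes, from 48 to 72 hpf on the left and from 72 to 96 hpf on the right. Colour gives the cluster and filled points passed the test (limma, adjusted p under 0.05); 15 points are filled on the left, among them all 5 genes of paralog number 9, and 1 (hoxc8a) on the right.

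Genes of paralog number 9 act in the posterior trunk and, for hoxa9 and hoxd9 copies, in the pectoral fin bud. All 5 fell from 48 to 72 hpf, by 0.74 to 1.32 on the log2 scale. The signal of hoxa9a was 6.77 in the 48 hpf control, 5.28, 5.49 and 5.55 in the 72 hpf controls, and 5.47 and 5.21 in the 96 hpf controls. The 5 later controls were thus close together and well below the 48 hpf array. Its fall from 48 to 72 hpf was -1.32 (SE 0.16, limma adjusted p = 0.00122), and from 48 to 96 hpf it was -1.43 (adjusted p = 0.00046), a 2.69-fold lower signal. For hoxb9a the 48 hpf control read 7.91, the 72 hpf controls 6.73, 6.75 and 6.60, and the 96 hpf controls 6.42 and 6.62. Here too the step came before 72 hpf, at -1.21 (SE 0.14, limma adjusted p = 0.00105), and the total reached -1.39. In contrast hoxa9b was 7.23 at 48 hpf, between 6.22 and 6.46 at 72 hpf, and 6.01 and 5.92 at 96 hpf, so that its 3 ages did not overlap; it fell by 0.86 to 72 hpf and by 1.26 in all. The remaining pair, hoxc9a and hoxd9a, fell by 1.18 and 0.91 from 48 to 96 hpf.

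The other posterior genes changed less. All 3 genes of number 10 fell from 48 to 96 hpf (hoxb10a -0.71, hoxa10b -0.68, hoxd10a -0.54), and hoxa10b and hoxb10a had done so by 72 hpf (-0.69 and -0.62), calls that were lost without 72 hpf control replicate 2 for hoxa10b and without replicate 1 or 3 for hoxb10a. With the mean of a gene's probe sets hoxa10b differed by -0.32 to 72 hpf (limma adjusted p = 0.126). Its other probe set was dim, with a mean signal of 3.50. With array class as a block the hoxb10a call was lost (limma adjusted p = 0.0971). Of the 5 genes of number 11, hoxa11b (-0.52) and hoxc11a (-0.53) fell, and hoxa11b had passed at 72 hpf (-0.47); hoxd11a (-0.46), hoxc11b (-0.21) and hoxa11a (-0.09) did not pass. The gene of number 12, hoxc12b, differed by -0.18 without passing. None of the 3 genes of number 13 passed over the same interval: hoxc13a differed by -0.69 (adjusted p = 0.129), hoxa13b by -0.48 and hoxd13a by -0.05. The signals of hoxa11a, hoxc11b, hoxc12b, hoxa13b and hoxd13a stayed under 6 in every array, where differences are compressed. Those of hoxd11a and hoxc13a reached 6. Numbers 11 to 13 of the hoxa and hoxd clusters pattern the distal fin.

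Among the central genes, the signal of hoxb6b was 7.44 in the 48 hpf control, 6.39, 6.22 and 6.33 at 72 hpf, and 6.06 and 5.86 at 96 hpf. The 3 ages did not overlap, and the largest gap lay between 48 and 72 hpf. It fell by 1.13 (SE 0.14) to 72 hpf and by 1.48 (SE 0.15) to 96 hpf, a 2.78-fold lower signal (limma adjusted p = 0.000186). The size rests on the lone 48 hpf control. The Gulfport array of that age read 6.41, just above the 72 hpf controls, and in the Gulfport arrays the 96 minus 48 hpf difference was -0.50. With age fitted over all 11 arrays hoxb6b fell by 0.80 to 72 hpf and by 1.05 to 96 hpf. The a copy, hoxb6a, fell by 0.56 in the controls from 48 to 96 hpf. For hoxc4a the controls read 8.0 at 48 hpf, 7.04, 7.08 and 6.99 at 72 hpf, and 6.70 and 6.82 at 96 hpf, again without overlap, and it fell by 1.24 in all (limma adjusted p = 0.000305). The other genes of number 4 differed less: hoxa4a fell by 0.72, while hoxd4a (-0.49) and hoxb4a (-0.32) did not pass.

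All 3 genes of number 8, which act in the trunk, fell from 48 to 96 hpf. The signal of hoxb8a was 7.99 at 48 hpf, 7.31, 7.18 and 6.93 at 72 hpf, and 6.67 and 6.84 at 96 hpf. In hoxb8b the values were 6.62, then 5.83, 5.78 and 5.89, then 5.64 and 5.42. Both copies were ordered by age without overlap and fell by 1.23 and 1.09 in all. The third gene, hoxc8a, was read from a probe set with a mean signal of 8.88, and its other probe sets had means of 4.84 and 3.93. By the first of these, hoxc8a was 9.42 at 48 hpf, 9.13, 8.95 and 8.87 at 72 hpf, and 8.56 and 8.48 at 96 hpf. It was the only Hox gene to pass between 72 and 96 hpf, where it fell by 0.47 (SE 0.11, limma adjusted p = 0.0447); its difference from 48 to 72 hpf was -0.43 and did not pass. The call was lost without 72 hpf control replicate 1 (adjusted p = 0.112) or 2 (0.110), without 96 hpf control replicate 1 (0.139) or 2 (0.246), and with the mean of the gene's 3 probe sets (0.104).

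Genes of number 5 to 7 were mixed. At number 5, hoxb5b (-0.67), hoxa5a (-0.58) and hoxc5a (-0.49) fell from 48 to 96 hpf, and hoxb5a (-0.31) did not pass. Of these, hoxa5a had fallen by 72 hpf (-0.56). At number 6, hoxc6b fell by 0.82 at a signal that stayed under 6 in every array, while hoxc6a (-0.28) did not pass. The hoxc6b call was lost without 96 hpf control replicate 2 (limma adjusted p = 0.0673). The smaller falls of number 5 from 48 to 96 hpf were not followed gene by gene without a control. The single gene of number 7, hoxb7a, was dim throughout (3.59 to 4.12) and differed by -0.08.

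Of the 9 anterior genes, 5 fell from 48 to 96 hpf and 1 from 48 to 72 hpf. The counts were 11 and 6 of 16 for central genes and 10 and 8 of 17 for posterior genes. Over all probe sets 12.9% fell from 48 to 96 hpf and 5.79% from 48 to 72 hpf. The shares of the 3 classes were not tested against each other. The anterior gene that fell by 72 hpf was hoxa2b, which sets the identity of the second pharyngeal arch. Its signal was 7.42 at 48 hpf, 6.90, 6.63 and 6.78 at 72 hpf, and 6.65 and 6.40 at 96 hpf, and it fell by 0.65 and then, in total, by 0.90 (limma adjusted p = 0.00492). The earlier call was lost without 72 hpf control replicate 2 or 3. The 72 and 96 hpf controls overlapped. Its companion in the hindbrain, hoxb2a, fell by 0.68 in all. At number 3, which acts in the posterior hindbrain and arches, hoxb3a was 9.85 at 48 hpf, 9.57, 9.21 and 9.14 at 72 hpf, and 9.06 and 9.08 at 96 hpf, and fell by 0.78. Also at number 3, hoxa3a (-0.68) and hoxd3a (-0.45) fell and hoxc3a (-0.15) did not pass. None of the 3 genes of number 1 passed: hoxc1a differed by -0.48, hoxb1a, which specifies a hindbrain segment, by -0.36, and hoxa1a by -0.04. All 3 stayed under a signal of 6 in every array.

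Over the 42 genes, paralog number had r = -0.03 and rho = -0.01 with the 96 minus 48 hpf difference. With the 72 minus 48 hpf difference it had r = -0.15 and rho = -0.13, and with the 96 minus 72 hpf difference r = 0.28 and rho = 0.32. These correlations run across genes measured on the same 6 control arrays, which are not independent replicates, and are given as description.

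Falls were seen in every cluster. From 48 to 96 hpf 4 of 6 hoxaa genes fell, 4 of 5 in hoxab, 6 of 10 in hoxba, 3 of 3 in hoxbb, 5 of 9 in hoxca, 1 of 3 in hoxcb and 3 of 6 in hoxda. The genes next to the clusters in RefSeq order (up to 3 on each side, 25 measured, a set added after the Hox values were seen) had a median of -0.02 over the same interval. Of these neighbours 6 fell, among them evx1 (-1.14), and 2 rose, nfe2l2a (1.18) and calcoco1b (0.52). Over all probe sets 12.9% fell and 11.2% rose in this interval.

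The further 17 probe sets, of 13 genes, gave no opposite call where both probe sets of a gene passed. Of these, 13 had a mean signal under 5. Of the 4 others, 3 fell from 48 to 96 hpf: hoxb9a (-1.43, against -1.39 for the probe set that stands for the gene), hoxb8a (-1.21 against -1.23) and hoxc11a (-0.58 against -0.53). The fourth, a second probe set of hoxd4a, differed by -0.33 and did not pass.

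In the Gulfport arrays alone, without the single 48 hpf control, 39 of the 42 genes were lower at 96 than at 48 hpf, with a median of -0.57. From 48 to 72 hpf 41 genes were lower, with a median of -0.50. From 72 to 96 hpf 29 were lower, with a median of -0.07. Over all probe sets the Gulfport medians were -0.09 from 48 to 96 hpf and -0.03 from 48 to 72 hpf. For the step from 72 to 96 hpf that median was -0.05, near that of the Hox genes. How many of all probe sets were lower in these steps was not counted. Each age is a single Gulfport array with its own exposure window, so age and window cannot be told apart there. Both 48 hpf arrays lay above all 9 later arrays in 29 genes, against 19.2% of all probe sets. With age fitted over all 11 arrays and adjusted for exposure, 31 genes fell from 48 to 72 hpf (15.3% of all probe sets), 33 from 48 to 96 hpf (22.5%) and 5 from 72 to 96 hpf (8.62%). In each interval 0 Hox genes rose at adjusted p under 0.05 (limma), where 11.1%, 15.7% and 8.03% of all probe sets did. The arrays fell into 5 with a higher and 6 with a lower lower quartile of signal. Both classes held control and exposed arrays, and both held 72 and 96 hpf arrays, but both 48 hpf arrays were in the lower class. Within that class, which holds a control of each age, the median Hox difference from 48 to 96 hpf was -0.56, with 41 of 42 genes below 0.

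For 2 genes the 2 age intervals differed by a test of the difference itself. The later step minus the earlier step was 1.22 for hoxa9a (SE 0.24, limma adjusted p = 0.0328) and 1.04 for hoxb9a (SE 0.21, adjusted p = 0.0363); 1.21% of all probe sets passed in that direction. Both genes fell steeply before 72 hpf and differed by -0.10 and -0.17 after it. Neither passed when any single 72 or 96 hpf control was left out (adjusted p from 0.0526 to 0.124).

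Gene groups that work with Hox genes were counted over the same interval. Among the TALE homeodomain cofactors, which bind DNA with Hox proteins, 7 of 12 fell from 48 to 96 hpf and 0 rose, with a median of -0.53; meis3 fell by 1.34 and pknox2 by 1.30. Of 14 Polycomb genes 11 fell and 0 rose (median -0.82), among them phc2b (-1.31) and ezh2, the histone methyltransferase of Polycomb repressive complexes (-1.09). Of 9 Trithorax genes 6 fell and 0 rose, led by the chromatin remodeller chd7 (-1.17) and the histone demethylase kdm6ba (-1.12). Of 5 caudal, ParaHox and even-skipped genes 1 fell, evx1 (-1.14); evx2 differed by -0.63 (adjusted p = 0.0668). In a list of 6 hindbrain and other regulators, egr2b rose by 1.39 and tbxta fell by 1.03. The signal stayed under 6 in every array in 5 of these 6 genes. For egr2b it was 4.76 in the 48 hpf control and a mean of 6.15 at 96 hpf. Of 17 retinoic acid genes 3 fell (17.6%), including the retinoic acid hydroxylase cyp26a1 (-0.51), and 2 rose, the synthesis enzyme aldh1a2 (0.74) and the retinol carrier rbp4 (0.66). Those shares were near those over all probe sets, of which 12.9% fell and 11.2% rose.

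Of 54 head and other non-Hox homeobox genes, 31 fell (57.4%) and 1 rose, with a median of -0.58, where 61.9% of the Hox genes fell with a median of -0.57. The largest falls in that list were dbx1a (-2.05) and pou3f1 (-2.01), both neural. Of 19 genes of paired fin, fin fold and tail bud, 3 fell (15.8%) and 0 rose, where 12.9% of all probe sets fell. In 9 of the 19 the signal stayed under 6 in every array. The gene tbxta is in that list too, at 5.43 in the 48 hpf control and a mean of 4.40 at 96 hpf. In the same list hand2 fell by 0.62.

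Markers of several cell types moved over the same ages. Of 18 neural progenitor genes 15 fell, with a median of -1.12, neurog1 at -2.63 and dla at -1.96. The summed progenitor signal was 13.36 in the 48 hpf control, 12.83 to 12.87 at 72 hpf and 12.45 to 12.49 at 96 hpf. Of 17 cell cycle genes 14 fell, with plk1 at -1.80 and ccnb1 at -1.53. Of 10 neuronal genes 5 rose, including gad1b (1.93) and snap25b (1.63), and 2 fell. Of 9 glial genes 2 rose, mbpa by 4.27, and 2 fell, with olig2 at -1.65. All 14 exocrine pancreas genes rose, 9 of 11 photoreceptor genes rose and 1 fell, and 9 of 10 erythroid genes fell. Of 16 muscle genes 2 fell (12.5%) and 1 rose, and 2 of 8 somite genes fell. The muscle share that fell was near the 12.9% over all probe sets. In these groups ctrb.1 (8.13), cela1.6 (7.04), opn1sw1 (7.80), opn1mw1 (7.46), hbbe3 (-6.10), slc4a1a (-2.85), tnnt3a (-1.43), pvalb3 (-1.05), foxc1a (-0.64) and foxc1b (-0.63) differed most. The part of these shifts in the Hox result was not tested.

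The second question was whether Hox signals differed in exposed embryos. At 72 hpf the 3 exposed arrays, 1 per site, were set against the 3 controls. No Hox gene passed in either direction (limma, adjusted p under 0.05), where 0.071% of all probe sets were lower and 0.323% higher. At an unadjusted p under 0.05, 5 of the 42 genes were counted, 4 lower and 1 higher, and 1162 of all 15502 probe sets. The median difference of the Hox genes was -0.08, against -0.01 for all probe sets. In 37 genes the 95% interval of the difference lay within 0.5 of 0 on either side, and in 41 within 1. With all 11 arrays and age as a factor again 0 genes passed (0.161% of all probe sets lower and 0.71% higher), and 8 of the 42 genes had an unadjusted p under 0.05, 5 lower and 3 higher, as did 1420 of all 15502 probe sets.

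**Figure D3:**
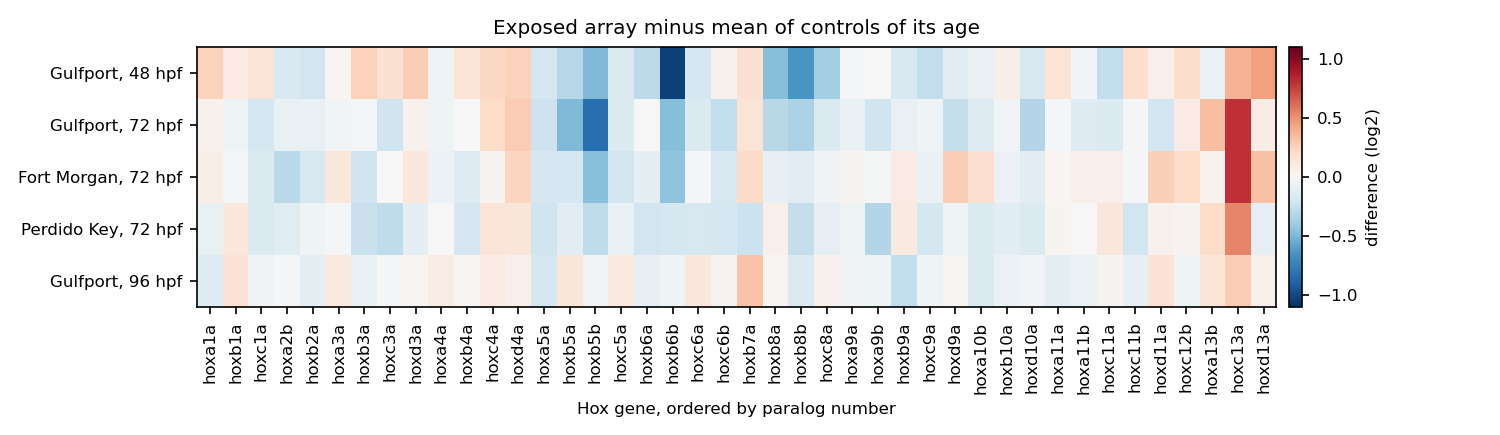
Difference in log2 signal (colour, blue lower and red higher) between each of the 5 exposed arrays (rows) and the mean of the controls of its age, for the 42 Hox genes ordered by paralog number (columns). The darkest blue cells are hoxb6b at 48 hpf in the Gulfport array (-1.03) and hoxb5b at 72 hpf in the Gulfport array (-0.83), and the darkest red cells are hoxc13a at 72 hpf in the Gulfport and Fort Morgan arrays (0.80 each).

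All 3 exposed arrays lay below all 3 controls in 7 Hox genes, where this was so for 5.86% of all probe sets. They lay above in 1 gene, where it was so for 5.91%. The 7 were hoxa5a, hoxb5a, hoxb5b, hoxb6b, hoxb8b, hoxc6b and hoxd10a, 6 of them central. They included all 3 measured genes of the hoxbb cluster and 3 of the 4 genes of number 5. The 1 above was hoxc13a.

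In the hoxbb cluster, hoxb5b, which in zebrafish acts downstream of retinoic acid to limit the number of atrial cells, read 7.73, 7.63 and 7.46 in the 72 hpf controls, 6.77 in the Gulfport array, 7.15 in the Fort Morgan array and 7.33 in the Perdido Key array. The groups did not overlap, and the Gulfport array was lowest. The exposed mean was lower by a difference of -0.52 (95% interval -0.85 to -0.19), which did not pass (limma adjusted p = 0.374).

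For hoxb6b the controls read 6.39, 6.22 and 6.33 and the exposed arrays 5.84 (Gulfport), 5.87 (Fort Morgan) and 6.12 (Perdido Key). All exposed values were below all controls, with Perdido Key nearest to them. The difference was -0.37 (95% interval -0.61 to -0.13, limma adjusted p = 0.387). For hoxb8b the controls read 5.83, 5.78 and 5.89 and the exposed arrays 5.48, 5.71 and 5.57 in the same site order. The difference was -0.25 (adjusted p = 0.601). With age as a factor over all 11 arrays the 3 genes differed by -0.39, -0.41 and -0.30 (adjusted p = 0.216, 0.201 and 0.175).

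The 2 measured genes that neighbour the hoxbb cluster, psme3 and nbr1a, differed at 72 hpf by -0.09 and 0.08. Among all 25 neighbours 1 passed in this comparison, nfe2l2a beside hoxda, at 0.90.

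Genes of number 5 act in the anterior spinal cord and in placing the pectoral fin. All 4 were below the control mean at each of the 3 sites, and hoxa5a, hoxb5a and hoxb5b are in the list without overlap given above. How many of all probe sets were below it at each site was not counted. The a copy hoxb5a was 8.34, 8.46 and 8.29 in the controls and 7.88, 8.17 and 8.25 in the Gulfport, Fort Morgan and Perdido Key arrays. The Perdido Key array was just below the lowest control. The difference was -0.27 (limma adjusted p = 0.661). For hoxa5a the difference was -0.21, and -0.20 with age as a factor (adjusted p = 0.265); for hoxc5a it was -0.14. At number 4 the differences went both ways, with hoxd4a at 0.22, hoxc4a at 0.12, hoxa4a at -0.04 and hoxb4a at -0.11, and none passed.

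The 1 gene above the controls was hoxc13a, whose mouse counterpart is needed in hair follicles and nails. Its signal was 6.62, 6.71 and 7.39 in the 72 hpf controls and 7.71, 7.71 and 7.44 in the Gulfport, Fort Morgan and Perdido Key arrays. The controls were spread widely, with replicate 3 just below the lowest exposed array. The difference was 0.71 (95% interval 0.28 to 1.15) and did not pass (limma adjusted p = 0.338), nor with age as a factor (0.54, adjusted p = 0.143). Without control replicate 3 it passed in both, at 0.96 (adjusted p = 0.0352) and 0.65 (adjusted p = 0.0482). That control was also the highest of the 3 for hoxa13b (4.78, 5.20 and 5.52), for hoxc12b, and for the fin fold genes and1 (10.57, 11.01 and 11.30) and and2 (10.11, 10.59 and 10.89), which were looked up after the hoxc13a values were seen. It was not the highest for hoxd13a (4.95, 4.87 and 4.93). How often that control was the highest of the 3 over all probe sets was not counted. The summed signal of the 19 fin and tail bud genes was 11.99 to 12.55 in the controls and 12.21 to 12.48 in the exposed arrays. Whether any of these signals had a part in the hoxc13a values was not tested.

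**Figure D4:**
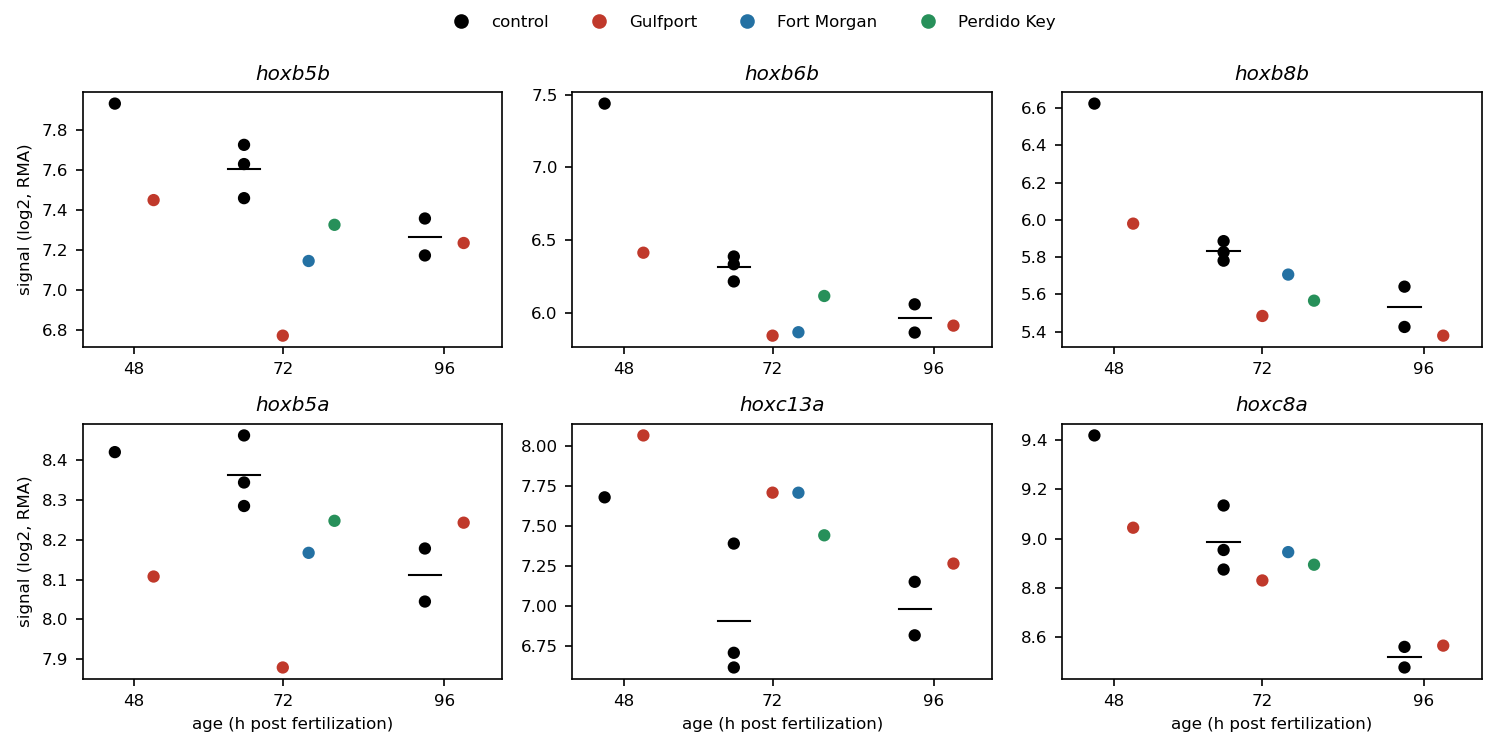
Log2 RMA signal (vertical axis, which does not start at 0) of 6 Hox genes in all 11 arrays by age (horizontal axis, points shifted sideways within an age), with controls in black, their mean as a line, and exposed arrays coloured by site. In the hoxbb genes hoxb5b, hoxb6b and hoxb8b the 3 exposed arrays lie below the 3 controls at 72 hpf, and in hoxc13a they lie above them.

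Taken singly, the exposed arrays at 72 hpf were each set against the same 3 controls, so that values from the 3 sites are not independent. In the Gulfport array hoxb5b was lower by -0.83 (SE 0.15, limma adjusted p = 0.0314), 1 of the 42 genes, where 0.619% of all probe sets were lower and 1.19% higher. This call was lost without control replicate 1 (adjusted p = 0.052) or replicate 2 (adjusted p = 0.106), and with array class as a block (-0.85, adjusted p = 0.0592). At 72 hpf the class with the higher lower quartile held the Gulfport and Fort Morgan arrays and control replicates 1 and 3. Within it hoxb5b differed by -0.63 between exposed and control arrays. The other class held only the Perdido Key array and control replicate 2, which differed by -0.30. That value therefore includes no Gulfport array, and class and site cannot be told apart at this age. The next largest Gulfport differences were hoxc13a at 0.80 (adjusted p = 0.223; 1.05 and 0.0398 without control replicate 3), hoxb5a at -0.48 (0.132), hoxb6b at -0.47 (0.161) and hoxb8b at -0.35 (0.311). At an unadjusted p under 0.05 (limma), 6 of the 42 genes were counted in the Gulfport array, and 2085 of all 15502 probe sets. Against the mean of the other 2 sites, hoxb5b in the Gulfport array differed by -0.46 (limma adjusted p = 0.511). No Hox gene passed there, where 0% of all probe sets were lower and 0.0194% higher. In that contrast 2 of the 42 genes had an unadjusted p under 0.05, which was not counted over all probe sets.

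No Hox gene passed in the Fort Morgan array (limma; 4 of 42 at an unadjusted p under 0.05, and 922 of all 15502 probe sets), where 0.0194% of all probe sets were lower and 0.135% higher. Its largest differences were hoxc13a at 0.80, hoxb5b at -0.46, hoxb6b at -0.45, hoxd13a at 0.33 and hoxa2b at -0.30. In the Perdido Key array 0 genes passed (1 of 42 at an unadjusted p under 0.05, and 629 of 15502), where 0.0129% were lower and 0.174% higher. There the largest were hoxc13a at 0.54, hoxa9b at -0.33, hoxc3a and hoxb5b at -0.28 each, and hoxb8b at -0.26.

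At 48 hpf a single Gulfport array, exposed from fertilization, stood beside a single control, and the pair was described without a test. The difference passed 1 on the log2 scale in 1 Hox gene, hoxb6b, at 7.44 in the control and 6.41 in the exposed array (-1.03); 0.181% of all probe sets were lower by at least 1 and 0.181% higher. The other hoxbb genes differed by -0.64 (hoxb8b) and -0.48 (hoxb5b), and hoxb8a by -0.47, which made these the lowest 4 of the 42. At the upper end were hoxd13a (0.45) and hoxc13a (0.39). The Hox median was -0.02, with 23 of 42 genes below 0. By paralog number, all 2 genes of number 2, 4 of number 5, 3 of number 8 and 5 of number 9 were below 0. All 3 of number 1, 4 of number 3 and the single genes of numbers 7 and 12 were above, and the other numbers went both ways. Several of these values were near 0, among them hoxa9b (-0.002), hoxa9a (-0.01) and hoxa3a (0.02). The median over all probe sets was 0.02, and how many of them were below 0 was not counted. The neighbours psme3 and nbr1a differed by -0.04 and 0.01.

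At 96 hpf, after exposure from 48 hpf, no Hox gene passed in the Gulfport array (limma). Over all probe sets 0% were lower and 0.116% higher. At an unadjusted p under 0.05, 0 Hox genes were counted and 669 of all 15502 probe sets. The largest differences were hoxb7a at 0.32, hoxc13a at 0.28, hoxb9a at -0.27, hoxa5a at -0.18 and hoxb1a at 0.16. In the hoxbb cluster hoxb5b was 7.36 and 7.17 in the controls and 7.24 in the exposed array, hoxb6b 6.06 and 5.86 against 5.91, and hoxb8b 5.64 and 5.42 against 5.38. The exposed array thus lay between the controls in the former 2 genes and just below them in hoxb8b. The Gulfport difference at 96 hpf minus that at 72 hpf was 0.80 for hoxb5b (limma adjusted p = 0.305), 0.62 for hoxb5a (0.406) and -0.52 for hoxc13a (0.872). In either direction 0 Hox genes and 0% of all probe sets passed. An unadjusted p under 0.05 was found in 2 Hox genes and in 1282 of all 15502 probe sets (limma).

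None of the TALE cofactors, retinoic acid, Polycomb, Trithorax or fin and tail bud genes passed in the 72 hpf exposure comparison (limma, adjusted p under 0.05). At an unadjusted p under 0.05 (limma) the counts were 0 of 12, 4 of 17, 0 of 14, 0 of 9 and 2 of 19. Over all probe sets the count was 1162 of 15502. The retinoic acid list had a median of 0.01, with 8 of 17 genes below 0 and a range from -0.50 to 0.37. Of the 54 non-Hox homeobox genes 2 passed as higher, and of 11 photoreceptor genes 2 passed as lower. Over all probe sets 0.323% passed as higher and 0.071% as lower. For 2 marker lists the summed signals of the exposed arrays all lay below those of the controls. The 14 exocrine pancreas genes summed to 11.70 to 12.17 in the controls and 10.36 to 11.30 in the exposed arrays, and the 18 neural progenitor genes to 12.83 to 12.87 and 12.64 to 12.78. All 10 neuronal genes (median -0.26), all 17 cell cycle genes (median -0.16) and all 11 photoreceptor genes (median -0.74) were below 0 in this comparison, which averages the sites. In the Gulfport, Fort Morgan and Perdido Key arrays 9, 10 and 5 of the neuronal genes were below 0. The counts were 14, 8 and 17 for cell cycle genes and 11, 11 and 7 for photoreceptor genes. How many of all probe sets were below 0 was not counted. The part of these shifts in the Hox values was not tested.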

How the data were processed

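The authors deposited log2 signals per probe set, made with RMA, per the submitters' processing notes; the software and its version are not given in the sources used here. Quantile normalization within RMA hides shifts in total RNA, and dim probe sets are compressed. Of 15617 rows, 115 AFFX controls were left out and 15502 were fitted without a filter. Symbols came from the platform annotation; all 59 Hox probe sets matched RefSeq (GRCz12tu) by Entrez identifier, with 0 symbols changed. No scanner files were used, so no detection call was made, and the number of arrays limits the precision.

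In R 4.3.3, limma 3.58.1 (lmFit, eBayes) gave the differences; p-values were adjusted over 15502 probe sets by Benjamini-Hochberg, with a threshold of 0.05. Age intervals and single exposed arrays were contrasts of 8 group means (3 residual degrees of freedom, lone arrays assumed to vary like the controls). Exposure was also tested as 3 against 3 arrays at 72 hpf, and over 11 arrays with age as a factor. Groups came from sample titles.

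The members, the 17 other gene lists and the rule for named genes were chosen with earlier results of these data known. The rule names, per age interval, the 12 members of largest difference that passed, per exposure comparison the members that passed and the 5 of largest size, and per list the 2 genes of largest 96 minus 48 hpf difference; the remaining members are given by paralog number. Alternatives were a filter at a signal of 6, the mean of a gene's probe sets, centring, limma's trend, robust and weighting options, a replicate block and leaving out arrays, and, added after seeing the data, a block for array class and age fitted over all arrays. List sums are log2 of summed linear signals. Fits were tested on simulated data. Figures used Python 3.11.15, matplotlib 3.10.9 and pandas 2.3.3.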

Additional observations from a re-analysis of the deposited data

Results flagged for a closer look

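For 2 Hox genes the change between 72 and 96 hpf differed from that between 48 and 72 hpf by a test of the difference itself. In hoxa9a the later step exceeded the earlier by 1.22 on the log2 scale, with steps of -1.32 and then -0.10. In hoxb9a it did so by 1.04, with steps of -1.21 and then -0.17. Both rest on the single 48 hpf control array.
Neither difference passed with any single 72 or 96 hpf control left out.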

How the results depend on the processing

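Of 708 values of named Hox genes over 20 settings, 673 kept their direction and their side of the threshold, 32 no longer passed, 3 came to pass and 0 changed sign. The 673 include many exposure differences that had not passed and again did not. The 32 losses therefore concern a smaller set, the results of named genes that had passed. They fell on calls of the age intervals, on the 2 differences between age intervals, and on hoxb5b in the Gulfport array at 72 hpf. The falls from 48 to 96 hpf numbered 26, and 17 to 26 with a control left out, the lowest without either 96 hpf control. In that interval only the genes of largest fall were followed singly over the settings. Among these hoxc6b alone was lost, without 96 hpf control replicate 2. The other calls lost without a 96 hpf control lie among the smaller falls, and which genes they were was not listed. From 48 to 72 hpf the falls numbered 15, 11 to 14 with a control left out, and 31 with age fitted over all arrays. Of the named falls in that interval, hoxb8a and hoxb10a no longer passed with array class as a block (limma adjusted p = 0.0509 and 0.0971). With the mean of a gene's probe sets hoxb8b and hoxa10b no longer passed (limma adjusted p = 0.0922 and 0.126). From 72 to 96 hpf the 1 fall became 0 with the mean of a gene's probe sets, 0 with array class as a block, 5 with age fitted over all arrays, and 0 to 1 with a control left out. The 2 genes whose age steps differed became 1 with the mean of probe sets, 0 with array class as a block and 0 with any control left out. The single Gulfport call at 72 hpf became 0 with array class as a block and 0 to 1 with an array left out. Higher calls, 0 in each exposure comparison, were 0 to 1 with an array left out in the Gulfport array at 72 hpf, in all exposed arrays at 72 hpf and with age as a factor, the 1 being hoxc13a without 72 hpf control replicate 3. The shares of all probe sets that fell moved with the setting too. From 48 to 72 hpf 5.79% fell, 3.9% to 4.79% without 1 of the 72 hpf controls, and 15.3% with age fitted over all arrays. From 72 to 96 hpf 2.01% fell, 1.59% with array class as a block, and 8.62% with age fitted over all arrays. With the mean of probe sets 2.95% of genes fell in that interval. From 48 to 96 hpf 12.9% fell, and 11.3% to 12.6% without 1 of the 72 hpf controls. The causes were not tested. Deviations of same-numbered controls from their group means had correlations of -0.03 and 0.01. With 2 arrays at 96 hpf both values use the same deviations with opposite sign, so they cannot decide whether the controls were paired. At 72 and 96 hpf replicate 1 was in the class with the higher lower quartile and replicate 2 in the other. With the replicate block the 72 to 96 hpf comparison again had 1 fall, hoxc8a at -0.53 (limma adjusted p = 0.0353). Exposed arrays carry no shared numbers, so no block was possible there. The few arrays and dim signals limit small differences.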
